A study of Homo sapiens with 6 samples.

Results

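The genes described are the 38 KRAB zinc finger genes that lie side by side in band 19q13.41 on the long arm of human chromosome 19, out of 46287 rows in the count table. They were taken by name, in chromosome order from ZNF577 to ZNF331, between positions 51804816 and 53580269 of GRCh38 (GENCODE release 29), a span of 1.78 Mb with 16 members on the plus strand and 22 on the minus strand. The RNA came from HaCaT cells, a spontaneously immortalized human keratinocyte line. There were 3 libraries with a homozygous SDR42E1 knockout made by CRISPR/Cas9 and 3 of wild-type HaCaT cells sampled together with them. The labels call them biological replicates but give neither the number of edited clones nor separate cultures, so p-values measure only the spread between these libraries, which may be partly technical. The cluster was singled out because its genes were lower in the knockout in these same libraries. Differences between knockout and control are therefore given for the members as description, without p-values. In bulk RNA, less RNA per cell and fewer cells making it cannot be told apart.

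KRAB zinc finger proteins form the largest family of human transcription repressors. Each carries a row of C2H2 zinc fingers that bind DNA. In most, the KRAB domain recruits the corepressor TRIM28, which in turn brings the histone methyltransferase SETDB1 and heterochromatin proteins. Many of them bind transposable elements, and the genes arose by repeated tandem duplication, so that close relatives often lie next to each other on chromosome 19.

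The libraries held 11504473 to 13454544 counts in knockout cells and 12094896 to 16928201 in control cells. SDR42E1 had 21.3 ± 1.61 CPM (counts scaled to library size) in knockout cells and 47.7 ± 1.02 CPM in control cells (SD, n = 3 each), a log2 fold change of -1.16 (SE 0.08, adjusted p = 2.69e-14, edgeR quasi-likelihood test). All 10 keratinocyte markers were detected, with summed levels of 10795 to 11329 CPM in knockout libraries and 8790 to 9394 CPM in control libraries. They did not move together. KRT5 was lower, with a mean of 1709 CPM in knockout cells and 2698 CPM in control cells, and KRT14 and DSG3 had overlapping groups. The others were higher in every knockout library than in any control library, among them KRT6A (2680 CPM in knockout cells, 1120 CPM in control cells). Summed levels of 5 melanocyte markers were 19.5 to 23.5 CPM in knockout and 24.1 to 24.9 CPM in control libraries. The 6 fibroblast markers summed to 1.12 to 2.13 CPM in knockout and 4.30 to 6.19 CPM in control libraries, the 3 endothelial markers to 1.92 to 2.66 CPM in knockout and 3.65 to 3.93 CPM in control libraries, and the 4 leukocyte markers to 0.262 to 1.73 CPM in knockout and 0.812 to 1.45 CPM in control libraries. TYR, DCN and CD3E were at 0 in all 6 libraries, while other markers of these lists were not. The collagen gene COL3A1 had 0, 0 and 4 counts in knockout libraries, against 31, 56 and 20 in control libraries. The endothelial marker VWF had 9, 13 and 9 counts in knockout libraries, against 18, 34 and 22 in control libraries, and in both genes the groups did not overlap. COL1A1 and CDH5 were also lower in every knockout library than in any control library. PECAM1 had 1 count in each group, and COL1A2, PDGFRB and LUM had overlapping groups. MITF made up most of the melanocyte sum, with 17.1, 18.4 and 22.1 CPM in knockout libraries, against 20.9, 21.4 and 21.7 CPM in control libraries. The part of these marker levels in the members' values was not tested.

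Promoters are shown first because the members were found to share letters at their start. RefSeq windows of 300 bases, 250 before and 50 after the start (GRCh38.p14), were matched for 31 of the 38 members. ZNF649, ZNF480, ZNF610, ZNF600, ZNF28, ZNF888 and ZNF665 had no entry. The start is that of the RefSeq entry and can lie inside the GENCODE span used for positions elsewhere. The window of ZNF701 begins at 52570037, while its GENCODE span begins at 52555457. Windows of ZNF468, ZNF432 and ZNF765 also lie well inside their spans. Below are the last 120 bases of the windows of 8 members, 70 before the start and 50 after it, each read 5′ to 3′ on the gene's strand. ZNF808, ZNF320, ZNF816, ZNF525 and ZNF701 were at least 2-fold lower in the knockout, and ZNF845 was lower by less. ZNF611 had overlapping groups (log2 fold change -0.26, SE 0.14), and ZNF677 had no counts. Capitals mark CCGGAAGCGGAT, or its first 7 letters CCGGAAG where only those match, and ZNF701 has neither.
ZNF808 (GRCh38.p14, chr19:52527598-52527717, plus strand): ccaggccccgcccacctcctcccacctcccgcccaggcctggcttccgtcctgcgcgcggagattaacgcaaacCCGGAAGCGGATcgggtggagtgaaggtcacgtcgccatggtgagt
ZNF320 (GRCh38.p14, chr19:52897645-52897764, minus strand): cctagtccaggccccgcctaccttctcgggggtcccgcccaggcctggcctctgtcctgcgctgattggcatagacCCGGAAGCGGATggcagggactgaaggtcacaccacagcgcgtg
ZNF816 (GRCh38.p14, chr19:52962832-52962951, minus strand): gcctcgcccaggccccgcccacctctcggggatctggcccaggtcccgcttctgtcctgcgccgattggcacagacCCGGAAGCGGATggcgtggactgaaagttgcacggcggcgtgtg
ZNF525 (GRCh38.p14, chr19:53365635-53365754, plus strand): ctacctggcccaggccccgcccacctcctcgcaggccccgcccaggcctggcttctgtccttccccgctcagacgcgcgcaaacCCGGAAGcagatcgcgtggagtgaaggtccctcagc
ZNF701 (GRCh38.p14, chr19:52570217-52570336, plus strand): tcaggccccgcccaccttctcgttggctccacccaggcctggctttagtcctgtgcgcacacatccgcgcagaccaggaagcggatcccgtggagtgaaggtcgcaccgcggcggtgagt
ZNF845 (GRCh38.p14, chr19:53333679-53333798, plus strand): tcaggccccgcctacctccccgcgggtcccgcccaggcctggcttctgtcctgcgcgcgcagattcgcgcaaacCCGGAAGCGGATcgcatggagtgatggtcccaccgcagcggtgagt
ZNF611 (GRCh38.p14, chr19:52734995-52735114, minus strand): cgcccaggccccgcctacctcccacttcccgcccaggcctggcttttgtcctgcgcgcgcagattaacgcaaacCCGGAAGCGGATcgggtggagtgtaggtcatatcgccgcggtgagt
ZNF677 (GRCh38.p14, chr19:53254774-53254893, minus strand): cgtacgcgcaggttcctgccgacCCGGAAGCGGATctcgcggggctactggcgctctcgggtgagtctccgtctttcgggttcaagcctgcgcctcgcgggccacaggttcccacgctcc

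The stretch CCGGAAGCGGAT stood in 8 of 31 member windows, in 0 of 182 windows of other zinc finger genes of chromosome 19, and in 13 of 27305 windows of all genes. It was picked, after the windows were seen, as the 12 letters beginning with CCGGAAG that most members hold, so its share among them describes that choice. With at most 1 mismatch it was found in 21 of 31 member windows (67.7%, on the gene's strand), against 7 of 182 for the other zinc finger genes and 178 of 27305 for all genes (0.652%), both strands being searched there. The 12 letters held by the most members were others, CAGGCCCCGCCC, which contain the GC box in reverse and stood in 12 of 31 windows, against 4 of 182 and 361 of 27305. Positions within the stretch are counted from 1 at its 5′ end, and bases of a window from 1 at the first base after the 250 upstream ones. ZNF701 differed from it by C2A and so did ZNF761, ZNF83 by C2T, ZNF525, ZNF841, ZNF616 and ZNF880 by G9A, and ZNF766 and ZNF160 by C8T. These are letters of the reference genome, and the HaCaT sequence was not read.

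The first 7 letters, CCGGAAG, which hold the GGAA core of the sites that ETS-family factors bind, were in 19 member windows (61.3%), 74 of the 182 other zinc finger windows (40.7%) and 10.7% of all windows, searched on both strands. In all 19 they lay on the gene's own strand, and in 17 they began between bases 5 and 17. Of members past the threshold in the knockout, 9 of 11 with a window held the 12-letter stretch within 1 mismatch. So did 6 of 13 tested members not past it, and 6 of 7 members with too few counts to test. Members with no RNA counted, such as ZNF677, are among those that hold it. The stretch was picked from these windows and the calls come from the contrast that chose the cluster. ZNF701 and ZNF320, among the 9, passed the filter on low counts through their control libraries alone. The split is therefore only a description, and a link between the stretch and the levels was not tested.

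Other motifs were searched in the same windows on both strands. The GC box GGGCGG was in 26 of 31 member windows (83.9%), against 66.5% of the other zinc finger windows and 44.6% of all windows. CCAAT was in 8 (25.8%), against 56.6% and 35.7%. CCGGAAGT, which contains those 7 letters, was in 4 (12.9%, against 19.8% and 4.44%), and the 10-letter motif of the factor NRF1 in 2 (6.45%, against 14.3% and 6.28%). TATAAA was in 0 of 31, against 4 of 182 other zinc finger windows and 3264 of 27305 windows of all genes, and the 10-letter palindrome of the factor ZBTB33 was in 0, against 2 of 182 and 128 of 27305. Member windows had a median GC content of 63.0%, against 59.3% for other zinc finger genes of the chromosome and 58.3% for all genes. Their median ratio of observed to expected CpG was 0.85 (range 0.63 to 1.13), against 0.75 and 0.58. Of the members without a count in any library, 4 had a window, with ratios of 0.73 in ZNF578, 0.81 in ZNF415, 0.94 in ZNF677 and 0.97 in ZNF534, on both sides of that median.

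Of the 38 members, 32 had at least 1 count and 6 had none in any of the 6 libraries. The 6 were ZNF610, ZNF534, ZNF578, ZNF415, ZNF665 and ZNF677. ZNF677 is known as a gene whose promoter is methylated and silent in several tumours. A count of 0 allows up to 3 counts in a library, here 0.228 to 0.262 CPM in knockout libraries and 0.174 to 0.244 CPM in control libraries (counting error only). These 6 genes fall in 2 places, next to ZNF880 and ZNF528 and next to ZNF347, which were themselves near the limit of detection. ZNF347 had 0 counts in all 3 knockout libraries, and 1, 2 and 1 in control libraries.

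**Figure D1:**
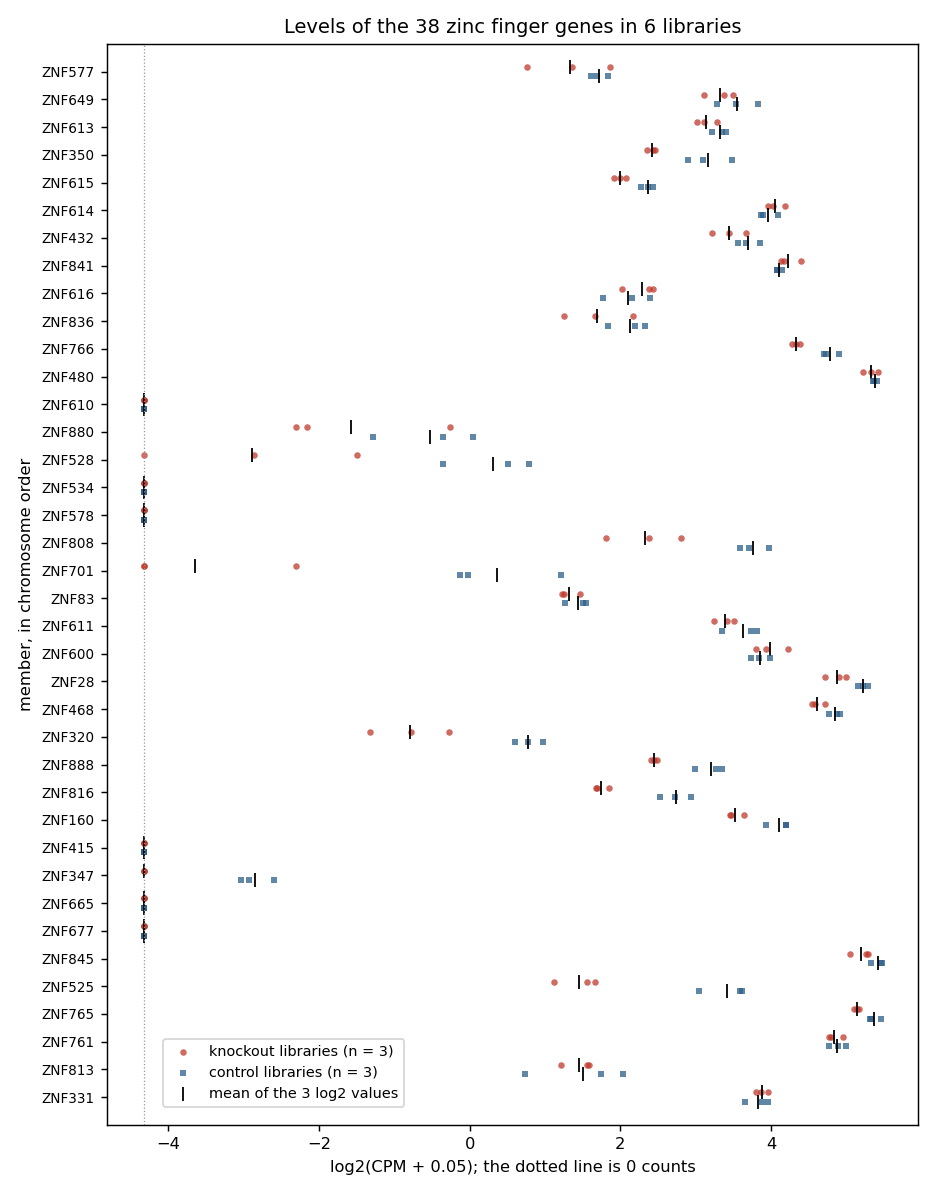
Level of each of the 38 members in every library, on a log2(CPM + 0.05) axis, with members in chromosome order. Red points are the 3 knockout libraries, blue squares the 3 control libraries and black ticks the means of the 3 log2 values. The 6 silent genes sit on the dotted line, and ZNF808, ZNF320, ZNF816 and ZNF525 show knockout points clear of control points.

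Per kilobase of annotated exon, levels of the detected members covered a wide range. ZNF480 was highest with 8.29 CPM per kb in knockout cells and 8.61 in control cells, followed in control cells by ZNF845 (5.69 in knockout, 6.61 in control), ZNF761 (6.08 in knockout, 6.25 in control) and ZNF28 (4.90 in knockout, 6.24 in control). ZNF525 had 0.433, 0.296 and 0.401 CPM per kb in knockout libraries and 1.14, 1.69 and 1.66 in control libraries. ZNF701 had 0.00703 in knockout cells and 0.189 in control cells. Annotated exon lengths ran from 3279 to 12344 bases, and which of those exons HaCaT cells use was not determined.

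Summed over all members, the cluster gave 381, 369 and 374 CPM in knockout libraries, against 467, 444 and 443 CPM in control libraries. The groups did not overlap, and the knockout mean of 375 ± 6.22 CPM was 83.1% of the control mean of 451 ± 13.6 CPM (SD, n = 3 each). The cluster took 0.0361 to 0.0372% of all counts in knockout libraries and 0.0451 to 0.0473% in control libraries. In all it held 4274 to 4860 counts a library in knockout cells and 5456 to 7665 in control cells.

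The filter on low counts kept 29 members, of which ZNF701 and ZNF320 passed it through their control libraries alone. Of the 29, 13 were past the threshold (adjusted p under 0.05 over all 12293 genes tested) and lower in the knockout, where 25.8% of all tested genes were, and 0 were past it and higher, where 24.6% were (50.4% of all tested genes passed in either direction). In 14 members every knockout library lay below every control library (29.0% of all tested genes), and in 0 the reverse held (27.5%). The median log2 fold change was -0.25 over the members and 0.00 over all tested genes. Since this contrast chose the cluster, these counts only describe it.

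ZNF525 had 36, 28 and 33 counts in knockout libraries (3.11, 2.13 and 2.89 CPM), against 114, 210 and 147 in control libraries (8.20, 12.2 and 11.9 CPM). Every knockout library was below every control library, and the log2 fold change was -2.00 (SE 0.20). Its annotated span, from 53365693 to 53392217, overlaps the first bases of ZNF765, yet ZNF765 had 34.2, 35.9 and 35.2 CPM in knockout libraries, against 43.9, 39.8 and 40.0 CPM in control libraries (log2 -0.23, SE 0.08). The neighbour that overlaps it thus differed by less.

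ZNF808, a gene whose loss in people prevents pancreas formation, had 40, 68 and 79 counts in knockout libraries, against 181, 207 and 192 in control libraries (5.18 ± 1.73 CPM in knockout cells, 13.5 ± 1.86 CPM in control cells, SD, n = 3 each). The groups were apart, with the knockout libraries spread widely among themselves. Its log2 fold change was -1.38 (SE 0.18). The gene next to it on the same strand, ZNF701, had 0, 2 and 0 counts in knockout libraries, against 13, 15 and 28 in control libraries. After scaling, control over knockout was a ratio of 23.3, with a 95% counting interval of 6.15 to 197. That interval pools the libraries of each group and leaves out the spread between them. ZNF701 passed the filter through its control libraries alone, and the contrast chose the cluster, so ratio and interval are only a description. Annotations of both genes overlap from 52555457 to 52564464, and 13.2% of the 100-base stretches of ZNF808 also occur in another gene, mainly ZNF701.

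ZNF528, which lies before ZNF808, was too low to test, with 0, 4 and 1 counts in knockout libraries and 19, 29 and 9 in control libraries. Its control over knockout ratio was 9.48 (95% counting interval 3.83 to 30.3), and the groups did not overlap. ZNF880 beside it had 2, 2 and 9 counts in knockout libraries and 5, 17 and 9 in control libraries, which overlap in CPM (ratio 1.98, interval 1.01 to 4.13). Intervals cover counting error only, not the spread between libraries, and are no test of these members.

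Another group of lower members lay in a row on the minus strand, from ZNF28 to ZNF160. ZNF816 had 3.55, 3.19 and 3.15 CPM in knockout libraries, against 7.63, 5.73 and 6.58 CPM in control libraries, with no overlap (log2 -1.01, SE 0.20). ZNF888 beside it had 5.27, 5.54 and 5.42 CPM in knockout libraries, against 10.1, 9.55 and 7.87 CPM in control libraries (log2 -0.77, SE 0.17). The knockout libraries of both genes lay close together and below all controls. ZNF160 had 12.5, 11.0 and 10.9 CPM in knockout libraries, against 18.3, 18.2 and 15.3 CPM in control libraries (log2 -0.60, SE 0.12). ZNF28, one of the more abundant members, had 29.7, 31.8 and 26.3 CPM in knockout libraries, against 37.3, 39.1 and 35.5 CPM in control libraries (log2 -0.35, SE 0.09). ZNF160 and ZNF28 were again lower in every knockout library. The annotated span of ZNF28, from 52797409 to 52857600, overlaps that of ZNF468 on the same strand, from 52838008 to 52890375. Of the 100-base stretches of ZNF28, 1.38% also occur in ZNF468. How reads of the overlap were counted is not known.

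ZNF320 and ZNF468 overlap on the same strand and cannot be read apart. Of the 100-base stretches of ZNF320, 71.6% also occur in another gene, and 52.0% of those of ZNF468, mostly in each other. ZNF320 had 9, 7 and 4 counts in knockout libraries, against 23, 33 and 18 in control libraries (log2 -1.59, SE 0.42). ZNF468 had 26.1, 23.9 and 23.3 CPM in knockout libraries, against 30.2, 29.2 and 27.3 CPM in control libraries (log2 -0.24, SE 0.09). Both sets of libraries were apart, and reads of the shared part may have been split or dropped by the counting, so both values are uncertain. ZNF468 lost its call with DESeq2 and when control replicate 1, control replicate 2, knockout replicate 2 or knockout replicate 3 was left out (log2 -0.23 to -0.21).

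**Figure D2:**
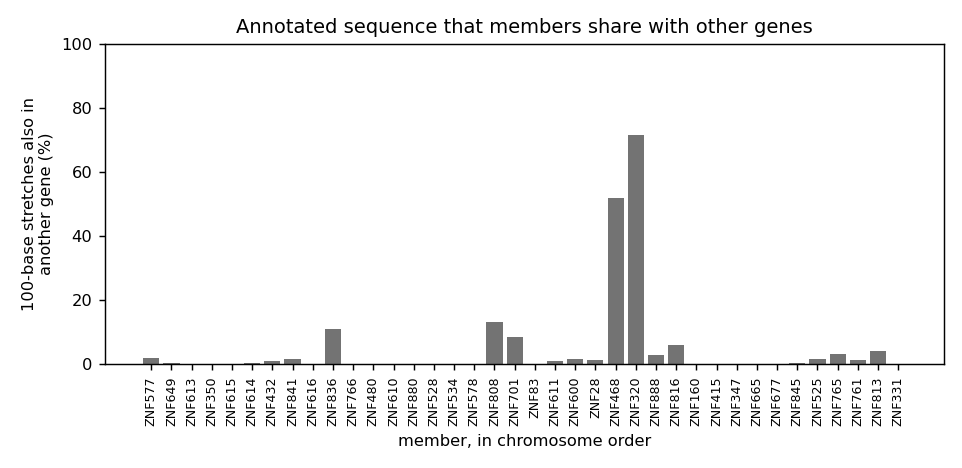
Share of each member's 100-base stretches, over its annotated transcripts, that also occur in a transcript of another gene (percent, members in chromosome order). ZNF320 at 71.6% and ZNF468 at 52.0% stand out, and 32 of 38 members are under 5%.

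Elsewhere in the cluster such sharing was small. It was under 5% in 32 of 38 members and 0 in 17, and in none of the 6 silent genes did it pass 0.094%, the value of ZNF578. ZNF836 shared 10.9% with another annotated locus, ZNF701 8.63% and ZNF816 5.89%, the last with the readthrough gene ZNF816-ZNF321P. That readthrough gene had 13, 9 and 4 counts in knockout libraries and 19, 18 and 9 in control libraries (log2 -0.55, SE 0.46), with overlapping groups.

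ZNF350 and ZNF766 were lower apart from these rows. ZNF350, also called ZBRK1, a BRCA1-binding repressor, had 5.36, 5.47 and 5.07 CPM in knockout libraries, against 11.2, 8.51 and 7.39 CPM in control libraries (log2 -0.77, SE 0.18). ZNF766 had 20.1, 19.3 and 20.8 CPM in knockout libraries, against 29.8, 26.1 and 26.4 CPM in control libraries (log2 -0.45, SE 0.09). In both genes the knockout libraries were tightly grouped below the controls. ZNF845 had 38.9, 33.0 and 38.3 CPM in knockout libraries, against 43.8, 39.9 and 44.2 CPM in control libraries (log2 -0.22, SE 0.08). Its groups differed by a small step, and the call was lost with DESeq2 and without knockout replicate 2 (log2 -0.14), control replicate 1 or control replicate 3. ZNF765 lost its call with DESeq2 and without control replicate 1 or knockout replicate 1 (log2 -0.22 to -0.18).

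The other 16 tested members were not past the threshold, with fitted levels in knockout cells between 0.76 and 1.13 times those in control cells. ZNF480, the most abundant member per kilobase, had 42.7, 37.4 and 40.1 CPM in knockout libraries, against 42.5, 41.4 and 41.0 CPM in control libraries (log2 -0.06, SE 0.08). ZNF331, known as an imprinted gene and for rearrangements in thyroid adenomas, had 13.8, 15.6 and 14.5 CPM in knockout libraries, against 15.5, 12.6 and 14.6 CPM in control libraries (log2 0.05, SE 0.12). Both genes had overlapping groups. ZNF649, reported to repress serum response element and AP-1 reporters, had 10.3, 8.58 and 11.2 CPM in knockout libraries, against 14.1, 11.6 and 9.66 CPM in control libraries (log2 -0.24, SE 0.15). ZNF432, a protein linked to DNA repair, had 12.6, 10.8 and 9.27 CPM in knockout libraries, against 14.4, 11.8 and 12.7 CPM in control libraries (log2 -0.25, SE 0.14). In each, the knockout libraries reached into the range of the controls.

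Above 0 were 5 of these 16, namely ZNF614 (log2 0.10, SE 0.11), ZNF841 (0.13, SE 0.11), ZNF616 (0.18, SE 0.22), ZNF600 (0.14, SE 0.12) and ZNF331. Leaving out 1 library brought ZNF616 and ZNF600 as low as 0.01 and turned ZNF331 to -0.04. ZNF615 was the one member not past the threshold whose groups were apart, with 3.72, 4.18 and 3.94 CPM in knockout libraries, against 5.11, 4.80 and 5.36 CPM in control libraries (log2 -0.36, SE 0.21). ZNF836 had 2.33, 3.11 and 4.46 CPM in knockout libraries, against 3.53, 4.98 and 4.55 CPM in control libraries (log2 -0.40, SE 0.25). Its log2 value was -0.67 without knockout replicate 3, where it passed the threshold, and -0.21 without knockout replicate 1. ZNF611 (log2 -0.26, SE 0.14) passed it at -0.38 without control replicate 1 and was at -0.16 without control replicate 2. The remaining members, ZNF577 (log2 -0.33, SE 0.28), ZNF613 (-0.18, SE 0.15), ZNF83 (-0.14, SE 0.27), ZNF761 (-0.04, SE 0.09) and ZNF813 (-0.12, SE 0.30), did not pass. When 1 library was left out, ZNF577 ran from -0.62 to -0.09 and ZNF813 from -0.44 to 0.16, and ZNF761 reached 0.02. SEs reached 0.30 among these genes, so modest differences in the least abundant could not be resolved.

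**Figure D3:**
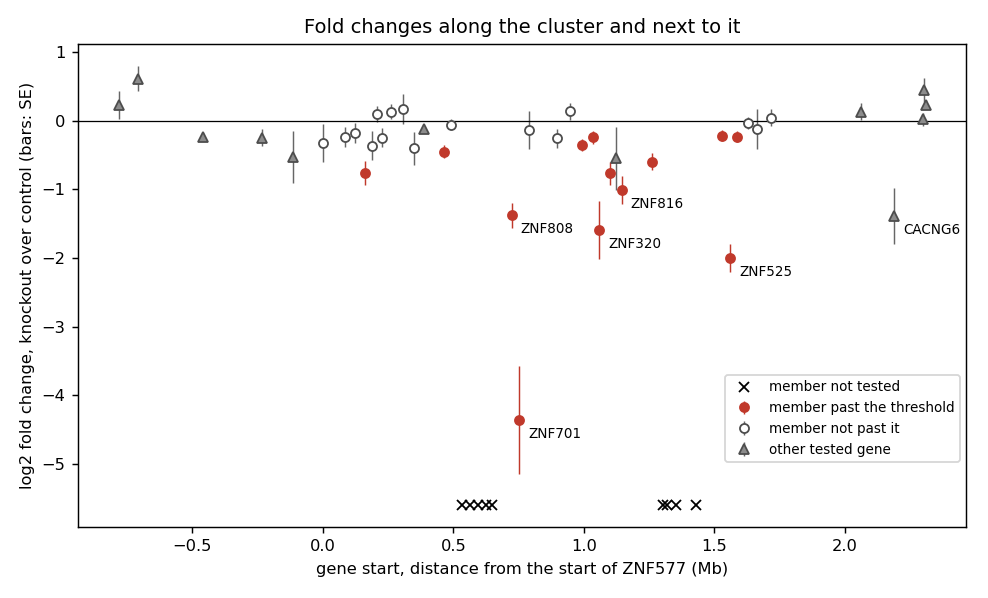
Log2 fold change, knockout over control, with SE bars, against the start of each gene as distance from the start of ZNF577 (Mb). Filled red points are members past the threshold, open points members not past it, grey triangles other tested genes in and beside the cluster, and crosses members too low to test. The red points lie mostly between PPP2R1A and ZNF761, with ZNF525 at -2.00 and ZNF808 at -1.38. ZNF701, plotted at -4.36, rests on 2 knockout counts, and its fitted value depends on the prior count.

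The cluster was divided by position after the values were seen, so the division is a description and was not tested. Before PPP2R1A, from ZNF577 to ZNF836, 1 of 10 tested members was past the threshold and lower (median log2 fold change -0.24), where 25.8% of all tested genes were. Between PPP2R1A and ZNF761, from ZNF766 to ZNF765, 12 of 16 were (median -0.40), including ZNF701 and ZNF320, which passed the filter through their control libraries alone. In the last 3, ZNF761, ZNF813 and ZNF331, 0 were (median -0.04). PPP2R1A itself, the scaffold subunit of protein phosphatase 2A and the one abundant gene of another kind inside the cluster, had 141 ± 4.59 CPM in knockout cells and 154 ± 8.39 CPM in control cells (log2 -0.12, SE 0.05). Its groups overlapped, and its call was lost under 7 of the other settings. The intronic transcript ENSG00000269825, on the strand of ZNF83, had 1, 0 and 5 counts in knockout libraries and 10, 13 and 8 in control libraries.

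Just outside, on the side towards the centromere, ZNF175 had 10.9 ± 1.20 CPM in knockout cells and 12.9 ± 0.438 CPM in control cells (log2 -0.24, SE 0.13). SPACA6, the nearest tested gene to the first member ZNF577 (log2 -0.33), had a log2 value of -0.53 (SE 0.38), ETFB -0.23 (SE 0.06), CTU1 0.62 (SE 0.18) and KLK11 0.23 (SE 0.20). On the far side, next to ZNF331 at 0.05, MYADM had a value of 0.14 (SE 0.13), CACNG6 -1.39 (SE 0.41), NDUFA3 0.02 (SE 0.10), TFPT 0.45 (SE 0.17) and PRPF31 0.23 (SE 0.07). CACNG6 was a low gene, with 0.788 ± 0.532 CPM in knockout cells and 2.08 ± 0.644 CPM in control cells.

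Zinc finger genes elsewhere on chromosome 19 were taken as a group of 208, of which 155 were tested. In the edgeR test 33 of them fell (21.3%, against 25.8% of all tested genes) and 14 rose (9.03%, against 24.6%), and the median log2 fold change was -0.14. DESeq2 called 21 lower and 9 higher. On the short arm 13 fell and 5 rose of 52 (median -0.17), on the long arm before the cluster 13 fell and 3 rose of 55 (median -0.18), and beyond it 7 fell and 6 rose of 48 (median -0.08). Whether the cluster differs from these groups was not tested, because it was chosen on this contrast.

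**Figure D4:**
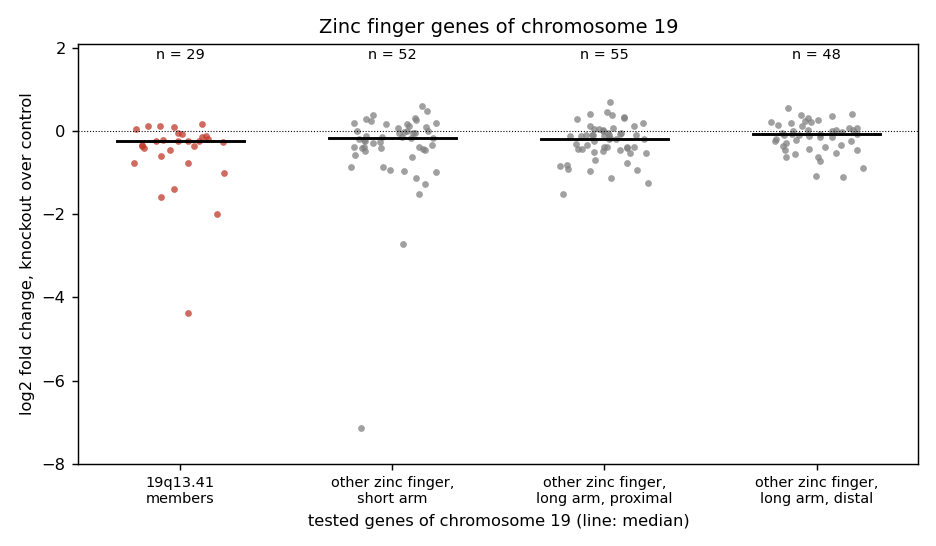
Log2 fold change, knockout over control, of tested zinc finger genes of chromosome 19, one point per gene and a line at each median. The 29 cluster members are red, and the others are divided by position; medians are -0.25 for the cluster and -0.17, -0.18 and -0.08 for the other groups, whose ranges overlap with that of the cluster.

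The members were also set beside genes of similar level. Among genes with a mean log2 CPM from 2 to 4, the median log2 fold change was -0.36 for 15 members, -0.16 for 72 other zinc finger genes of the chromosome and -0.11 for all 2276 tested genes. From 4 to 6 it was -0.22 for 9 members, -0.02 for 31 others and 0.01 for all 4507. Below 2 it was -0.33 for 5 members, -0.45 for 48 others and -0.28 for all 1633. In the lowest class the members' median lay between that of all tested genes and that of the other zinc finger genes. That class includes ZNF701 and ZNF320, which passed the filter through their control libraries alone. The contrast chose the cluster, so its medians are a description, and a difference from the other genes was not tested.

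Leaving out those whose mean log2 CPM was under 2, the largest falls among these other genes were ZNF333 (log2 -1.14, SE 0.24), ZNF486 (-0.97), ZNF181 (-0.92), ZNF114 (-0.91) and ZNF221 (-0.80), with edgeR adjusted p of 4.54e-05 to 0.00257. ZNF121, the most raised, had 172 ± 8.47 CPM in knockout cells and 113 ± 6.71 CPM in control cells (log2 0.61, SE 0.05, edgeR adjusted p = 6.19e-12). ZNF787 (0.57), ZNF136 (0.48), ZNF850 (0.45) and ZNF558 (0.40) were the other 4 largest rises. ZNF136 lost its call with DESeq2 and without control replicate 1, and ZNF850 with DESeq2 and without control replicate 2 or knockout replicate 2. No member of the 19q13.41 cluster was past the threshold in that direction, where 24.6% of all tested genes were. The cluster was chosen on this contrast as lower, so that absence only describes the choice.

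Of 21 genes for corepressor and heterochromatin proteins, through which KRAB zinc finger factors act, 5 fell (23.8%, against 25.8% of all tested genes), 4 rose (19%, against 24.6%) and 12 did not pass, with a median log2 fold change of -0.03. TRIM28 had 373 ± 3.98 CPM in knockout cells and 328 ± 5.88 CPM in control cells (log2 0.19, SE 0.05, edgeR adjusted p = 0.000892). SETDB1, on chromosome 1, had 46.2 ± 3.79 CPM in knockout cells and 62.1 ± 2.16 CPM in control cells (log2 -0.42, SE 0.07, edgeR adjusted p = 5.20e-06). The remodeller CHD3 fell (log2 -0.95, SE 0.06), as did the heterochromatin protein gene CBX5 (-0.73, SE 0.10), and UHRF1, which guides maintenance of DNA methylation, rose (0.62, SE 0.05). ZNF274, a zinc finger factor that binds the 3′ ends of zinc finger genes themselves, had 11.2 ± 0.501 CPM in knockout cells and 11.9 ± 0.990 CPM in control cells and did not pass (log2 -0.09, SE 0.13). The part of these genes in the cluster's levels was not tested.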

How the data were processed

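RNA of 6 HaCaT libraries, 3 knockout and 3 control, was made into stranded total-RNA libraries, per the labels' protocols. The authors deposited raw counts, whole numbers for each gene in each library. The submitters' processing notes name GRCh38. Aligner, counting tool and strand setting are not named by the labels or the table, so overlapping genes are uncertain.

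The test was that of edgeR 4.0.16 (R 4.3.3): filterByExpr (minimum count 10, minimum total 15), TMM scaling, and the two-sided robust quasi-likelihood F test of knockout against control over 6 libraries, with Benjamini-Hochberg adjustment over 12293 genes and a threshold of 0.05. SEs were derived from the fold change and its F value (prior count 0.125). CPM are counts per TMM-adjusted library size. Ratios of few counts have 95% exact binomial intervals. The procedure was tested on simulated data with 50 genes changed at each size. It recovered 54% of 1.25-fold, 88% of 1.5-fold, 76% of 2-fold and 100% of 4-fold changes, so small differences can be missed. Far fewer genes were changed in the simulation than were called in the real libraries, and spread was drawn from the fitted trend. These rates therefore need not hold for the real fit. Libraries within a group were not duplicates (chi-square over df 2.65 to 4.49).

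The members and lists were chosen with earlier results of these data known. Named genes were all members; tested genes inside the cluster and the 5 nearest on each side; the 5 largest falls and rises among other chromosome 19 zinc finger genes whose log2 CPM averaged 2 or more; and TRIM28, SETDB1 and list genes changed by at least 0.5 (log2). ENSG00000269825 and ZNF274 were added after their values were seen. Single genes of the cell type marker lists were named outside this rule. The short arm was taken to end at 26 Mb. Positions came from GENCODE release 29, promoter windows from RefSeq (the first listed per gene). Stretches of 100 bases were compared over GENCODE transcripts on the sense strand. Alternatives were DESeq2 1.42.0, RLE and upper-quartile scaling, other filters, a replicate block and leaving out each library.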

Additional observations from a re-analysis of the deposited data

How the results depend on the processing

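Leaving out ZNF468 and ZNF320 was chosen after seeing the data. The count of members lower in the knockout was 13 of 29 (25.8% of all tested genes), and 13 with RLE scaling, upper-quartile scaling or the replicate block. It was 11 with DESeq2 (32 members in the fit), 14 without a filter (32) and 12 with at least 1 CPM in 3 libraries (28). When 1 library was left out it was 11 to 15, and 11 without ZNF468 and ZNF320. The count of all genes called, in either direction, moved as well. It was 6197 in the main fit, 5315 with DESeq2, 6403 without a filter, 6159 with at least 1 CPM in 3 libraries, and 5338 to 6074 when 1 library was left out. Of these calls, 48.8% were higher in the main fit and 49.8% with DESeq2. The share was 48.9% without a filter and 48.7% with at least 1 CPM in 3 libraries. The share of all tested genes called lower is given for the main fit only. The count of members higher was 0 under each of these settings. Their median log2 fold change was -0.28 with upper-quartile scaling, which moved the median of all genes to -0.03, and -0.29 to -0.21 when 1 library was left out. Of 29 tested members, 24 kept their side of the threshold under every setting that gave a value. ZNF468, ZNF765 and ZNF845 lost it under at least 1, and ZNF836 and ZNF611 gained it under 1. The 24 include ZNF701 and ZNF320, which passed the filter through their control libraries alone. ZNF701 had no value with at least 1 CPM in 3 libraries. Every setting reuses the libraries that chose the cluster, so keeping a side only describes the members. Among other zinc finger genes of chromosome 19, DESeq2 called 21 lower and 9 higher, and 9 were higher without knockout replicate 2. SDR42E1 ranged from -1.22 to -1.12. Of the genes followed, none past the threshold changed sign under the settings run. Among those not past it, ZNF331, ZNF761, ZNF813 and NDUFA3 did. Deviations of libraries with equal numbers correlated at 0.05, -0.04 and 0.06, and 1 of 3 knockout libraries matched its own number best. Pairing was therefore not assumed, and a fit with the replicate block called 6425 genes where the fit without it called 6197. Depth limits the members with few counts, ZNF528, ZNF880, ZNF701 and ZNF320 above all.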
